A study of Mus musculus with 8 samples.

Results

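The 10 genes described here encode receptors of the common gamma chain cytokine family and the signalling genes below them. They are the receptor chains Il2ra, Il2rb, Il2rg, Il7r and Il21r, the kinase Jak3, the transcription factors Stat5a and Stat5b, and the feedback inhibitors Cish and Socs2. They were chosen by symbol as a pathway, with earlier results of these data known. All 10 were found among the 41730 genes of the deposited count table. The libraries came from mouse CD8+ T cells of OT-I genotype, whose transgenic receptor recognises the ovalbumin peptide SIINFEKL. The T cells had been cultured with peptide-loaded dendritic cells grown from LXR-/- bone marrow, which lack the liver X receptors (LXR), and were then sorted by flow cytometry. The control group received DMSO and the treated group RGX-104, a synthetic LXR agonist, at 2 µM, with 4 libraries in each group. The LXR deletion was thus shared by the dendritic cells of both groups, and the labels name no deletion in the T cells. The sources used here give no culture time, strain background, sex or age. The sources also leave unstated whether the libraries of a group came from different cultures or mice, so p-values measure the spread between these libraries, which may be technical.

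Cytokines of this family, among them interleukin 2, 4, 7, 9, 15 and 21, signal through receptors that share the gamma chain encoded by Il2rg. Binding brings together the kinases JAK1 and JAK3. For interleukin 2, 7 and 15 among others, these kinases phosphorylate STAT5. Dimers of STAT5 then enter the nucleus and switch on genes such as Il2ra, Cish and Socs2. In CD8 T cells interleukin 2 and interleukin 15 support expansion and effector or memory survival through the shared beta chain. The receptor for interleukin 7 maintains resting cells and is usually lowered after activation.

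Among the members with a start-site window, Cish and Il7r were those whose windows held the core STAT binding motif TTCNNNGAA, which reads the same on both strands. No window was available for Il2rb and Socs2, so these 2 members were not searched. Windows of 300 bases, from 250 before to 50 after a start site, were matched in the RefSeq table (GRCm38.p6) for 8 of the 10 members, in 10 windows, and the motif was in the windows of 2 members. Over all 32851 windows of this kind, 8.30% held at least 1 match and 0.457% held at least 2. The stretches are printed to show the letters of each match and the bases beside it, with the matches in capitals. The Cish stretch is at chr9:107296654-107296683 on the plus strand, with matches from base 1 to 9 and 12 to 20 counted from the start site as 1. The Il7r stretch is at chr15:9529999-9530028 on the minus strand, with its match from base -142 to -134. This is counted from the start site of its window, which lies inside the gene, downstream of the gene's outer end at 9529941.
Cish: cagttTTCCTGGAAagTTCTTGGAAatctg
Il7r: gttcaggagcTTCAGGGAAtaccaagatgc
A match describes the letters only and shows no binding.

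Of the 10 members, which all passed the filter on low counts, 1 was higher with RGX-104 and 0 were lower by edgeR at adjusted p under 0.05, against 8.95% of the 13290 genes tested. The member that rose was Il2rb, encoding the beta chain (CD122) shared by the receptors for interleukin 2 and interleukin 15. At an unadjusted p under 0.05 there were 5 members, namely Il2ra, Il2rb, Il2rg, Il21r and Cish, against 22.2% of all tested genes. DESeq2 and limma-voom each called Il2rb higher and added Il21r as lower. Over the genes they tested, DESeq2 called 4.65% higher and 4.45% lower, and limma-voom 5.28% higher and 4.76% lower. The groups did not overlap for Il2rb and Il2rg, which lay higher with RGX-104, and for Il21r, which lay lower, against 14.5% of all tested genes with groups apart, 7.07% higher and 7.45% lower. The median log2 change was 0.06 over the members and 0.00 over all tested genes, with 6 members above 0 and 4 below.

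Levels below are in CPM, counts divided by a library size that was scaled by the trimmed mean of M values (TMM) and brought to a common total. Library totals ranged from 30642316 to 37714355 counts, and the members had between 326 counts (Socs2) and 50769 counts (Il2rb) in a library. Libraries are numbered by their columns in the table, and the column numbers of the RGX-104 group could not be matched to its numbered samples. RGX-104 libraries 2 and 3 were the most alike pair, with a chi-square per degree of freedom of 1.34 against 2.24 to 6.32 for the other pairs within a group. No pair differed by less than counting noise, so none was merged. The sort was checked on marker genes. Cd8a was at 805 to 903 CPM and Cd3e at 285 to 339 CPM, while Cd4 had at most 14 counts and Foxp3 at most 6. Cd2 had at most 6 counts, and since it also has a row for an alternate-scaffold copy it is not read as absent. Of 6 natural killer and innate lymphoid cell markers, Ncr1 and Klra8 had 0 counts in every library and Klrb1c at most 1. The sum of the 6 was at 69.2 to 70.8 CPM in control and 75.9 to 82.9 CPM in RGX-104 libraries, so it lay higher in the RGX-104 group, as Il2rb did. Nearly all of it came from Eomes and Rora, which T cells also express. Eomes was at 45.9 to 55.9 CPM over all libraries and did not pass (edgeR adjusted p = 0.214), and Rora was called higher at 0.34 ± 0.08 (log2, SE; edgeR adjusted p = 0.0326). Lyz2, a myeloid gene, had at most 5 counts. Summed dendritic cell markers, 13 genes, were at 113 to 123 CPM in control and 125 to 138 CPM in RGX-104 libraries, mostly from Cst3, Batf3 and Cd74, while Clec10a was at 0 throughout, and Clec9a and Cd209a had at most 1 count. The part of these markers in the results below was not tested.

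**Figure D1:**
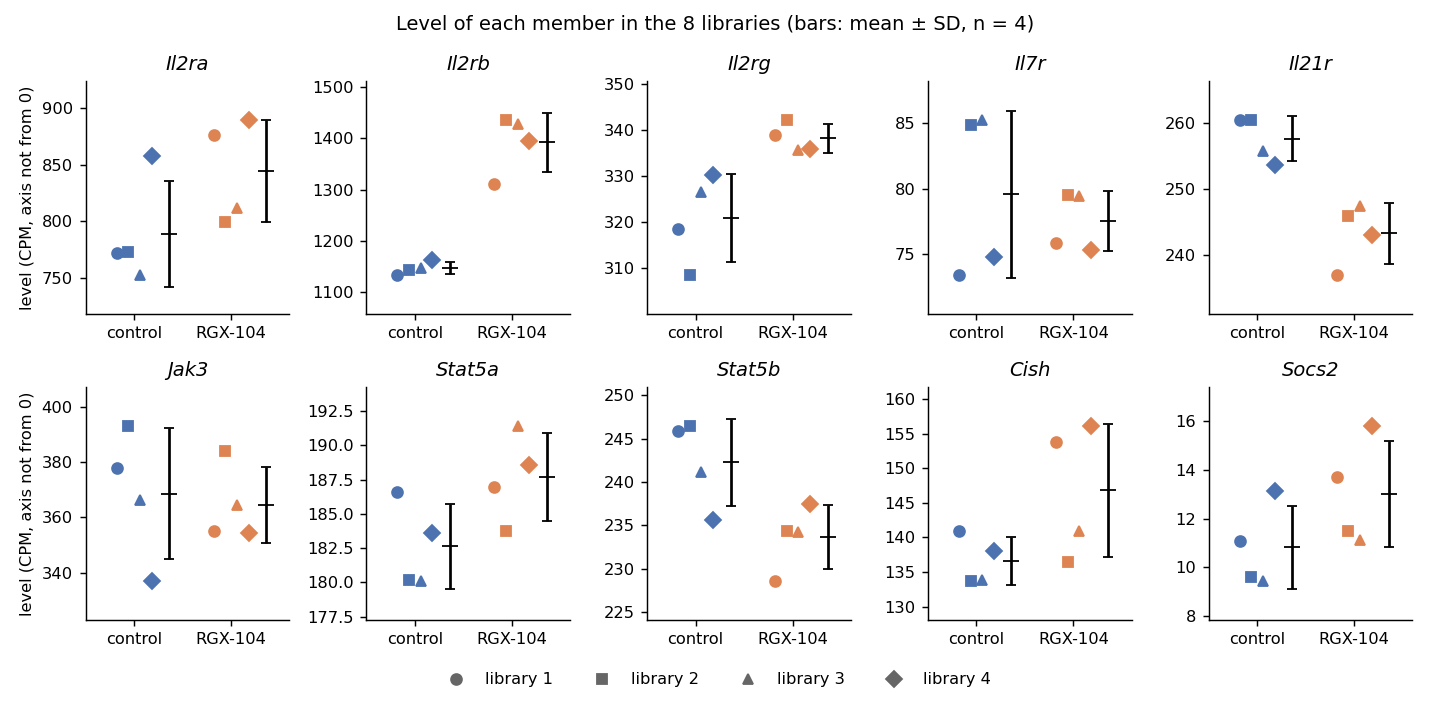
Level of each of the 10 members in CPM (vertical axes, each with its own scale and not starting at 0) in the control and RGX-104 libraries, with the library number as the symbol and the mean ± SD (n = 4) as bars. For Il2rb the 4 RGX-104 libraries sit between 1311 and 1436 CPM, all above the control libraries at 1134 to 1163 CPM, whereas the groups overlap for 7 of the 10 genes.

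The interleukin 2 receptor is built from the products of Il2ra, Il2rb and Il2rg, of which the beta and gamma chains carry the signal. Il2rb (chromosome 15 from 78479256 to 78511621, GRCm38, minus strand) was at 1134, 1144, 1147 and 1163 CPM in control libraries 1 to 4. It was at 1311, 1436, 1427 and 1395 CPM in RGX-104 libraries 1 to 4. Every RGX-104 library was above every control library, and the control libraries lay close together while RGX-104 library 1 was the lowest of its group. The mean rose by 21.4%, from 1147 ± 11.9 to 1393 ± 57.2 CPM (SD, n = 4). The log2 change was 0.28 ± 0.03 (SE), with an edgeR adjusted p of 6.41e-08. By adjusted p Il2rb was number 50 among the 13290 tested genes, but 232 of the 640 genes called higher had a larger change. Its log2 change was between 0.24 and 0.32 under every alternative tried and was called in each. In bulk RNA a larger share of cells with the transcript and more transcript per cell cannot be told apart.

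Il2ra (chromosome 2 from 11642792 to 11693194, plus strand) encodes the alpha chain CD25, which raises the affinity of the receptor and is itself induced by STAT5. It was at 772, 773, 753 and 858 CPM in control libraries 1 to 4 and at 876, 799.8, 812 and 889.8 CPM in RGX-104 libraries 1 to 4. Control library 4 stood above RGX-104 libraries 2 and 3, so the groups overlapped. The log2 difference was 0.10 ± 0.04 (SE; 95% interval 0.00 to 0.20), with an edgeR adjusted p of 0.223. Without control library 4 the difference was 0.14 and was called (edgeR adjusted p = 0.00998).

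Il2rg (chromosome X from 101264385 to 101268255, minus strand), the common gamma chain itself, was at 319, 309, 327 and 330.3 CPM in control libraries 1 to 4. In RGX-104 libraries 1 to 4 it was at 339, 342, 336 and 336 CPM. The groups did not overlap, but the distance between the highest control and the lowest RGX-104 library was small. The log2 difference was 0.08 ± 0.03 (SE; 95% interval 0.02 to 0.13), and it did not pass the test (edgeR adjusted p = 0.0857). The call depended on scaling, as Il2rg was called higher with upper-quartile factors (edgeR adjusted p = 0.0370) and with library totals alone (edgeR adjusted p = 0.0293). It was also called without control library 4 (edgeR adjusted p = 0.0316). Il2rg shares 728 exon bases with the overlapping gene model Gm20489 on the same strand.

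The 3 chains were also compared as ratios of counts inside a library, which no scaling factor can move. These ratios were chosen after the levels were seen and carry no test. The Il2rb to Il2rg ratio was 3.57 ± 0.0908 in control and 4.12 ± 0.172 in RGX-104 libraries (SD, n = 4), with the highest control at 3.71 and the lowest RGX-104 library at 3.87. The Il2ra to Il2rg ratio was 2.46 ± 0.124 in control and 2.50 ± 0.144 in RGX-104 libraries and overlapped. The Il2rb to Il2ra ratio was 1.46 ± 0.0715 in control and 1.65 ± 0.145 in RGX-104 libraries and also overlapped. For this ratio RGX-104 library 1 at 1.496 lay below control library 3 at 1.523. The beta chain transcript was therefore higher relative to the gamma chain in every RGX-104 library. Relative to the alpha chain its ratio overlapped between the groups, as did that of the alpha chain to the gamma chain.

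Il7r (chromosome 15 from 9506159 to 9529941, minus strand) encodes the interleukin 7 receptor alpha chain. It was at 73.4, 84.8, 85.2 and 74.8 CPM in control libraries 1 to 4 and at 75.9, 79.5, 79.4 and 75.3 CPM in RGX-104 libraries 1 to 4. All 4 RGX-104 libraries lay inside the control range. The log2 difference was -0.04 ± 0.05 (SE; 95% interval -0.13 to 0.06), and the edgeR adjusted p was 0.685. The spread between control libraries was wide, with a coefficient of variation of 7.96%.

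Il21r (chromosome 7 from 125603252 to 125634397, plus strand) encodes the chain that pairs with the gamma chain to bind interleukin 21. It was at 260.5, 260.4, 256 and 254 CPM in control libraries 1 to 4, and at 237, 246, 247 and 243 CPM in RGX-104 libraries 1 to 4. Every RGX-104 library was below every control library. The difference of -0.08 ± 0.03 (log2, SE; 95% interval -0.14 to -0.03), or -5.54%, narrowly missed the threshold (edgeR adjusted p = 0.0531). DESeq2 called it lower (adjusted p = 0.0230), as did limma-voom (adjusted p = 0.0423), and so did edgeR without control library 4 (adjusted p = 0.0357).

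**Figure D2:**
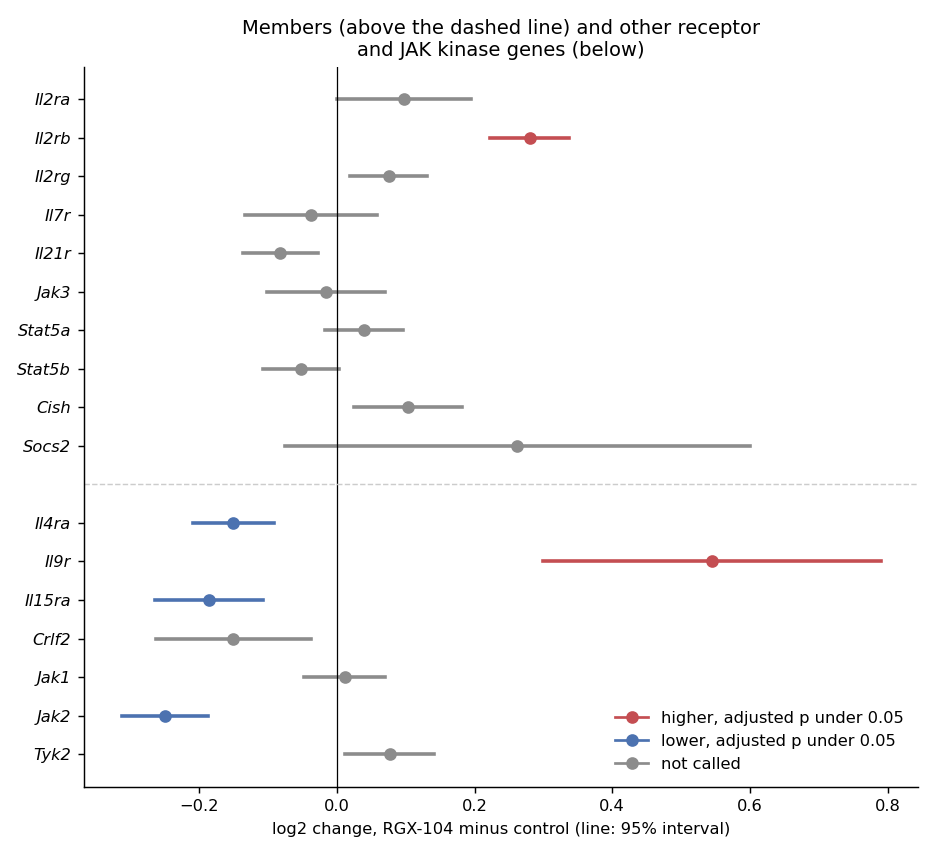
Log2 change (RGX-104 minus control, horizontal axis) with its 95% interval for the 10 members above the dashed line and for the other tested receptor subunits and JAK kinases below it. Il2rb at 0.28 is the called member; below the line Il9r at 0.54 was called higher and Il4ra, Il15ra and Jak2 were called lower.

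Jak3 (chromosome 8 from 71676383 to 71690577, plus strand) encodes the kinase bound to the gamma chain. It was at 378, 393, 366 and 337 CPM in control libraries 1 to 4 and at 355, 384, 364 and 354 CPM in RGX-104 libraries 1 to 4. The RGX-104 libraries all fell within the control range. The log2 difference was -0.02 ± 0.04 (SE; 95% interval -0.10 to 0.07; edgeR adjusted p = 0.865), and its sign turned without control library 2 (0.02). Jak3 shares 404 exon bases with Insl3 on the same strand, which had 2685 counts over the 8 libraries.

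Stat5a and Stat5b encode closely related forms of the factor and lie beside each other on chromosome 11, from 100859351 to 100885169 (plus strand) and from 100780731 to 100859004 (minus strand). Stat5a was at 187, 180.2, 180.1 and 184 CPM in control libraries 1 to 4 and at 187, 184, 191 and 189 CPM in RGX-104 libraries 1 to 4. Stat5b was at 246, 246, 241 and 236 CPM in control libraries 1 to 4 and at 229, 234, 234 and 238 CPM in RGX-104 libraries 1 to 4. The groups overlapped for both genes. The log2 differences were 0.04 ± 0.03 for Stat5a (SE; 95% interval -0.02 to 0.10; edgeR adjusted p = 0.422) and -0.05 ± 0.03 for Stat5b (95% interval -0.11 to 0.00; edgeR adjusted p = 0.264). On the linear scale the interval reached from -1.16% to 6.85% for Stat5a and from -7.19% to 0.261% for Stat5b.

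The Stat5a to Stat5b count ratio was 0.754 ± 0.0204 in control and 0.803 ± 0.0170 in RGX-104 libraries (SD, n = 4). The highest control was at 0.779 and the lowest RGX-104 library at 0.784, so the groups did not overlap, although the gap was narrow. This ratio too was chosen after the levels were seen and was not tested. Reads can be hard to place between the paralogs, since 10.8% of the windows of 50 bases in the longest Stat5a transcript also occurred in Stat5b, and 11.8% of those of Stat5b in Stat5a. Stat5a also shares 72 exon bases with Stat3 on the opposite strand, and whether strand was used in counting is not given in the sources used here.

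Cish (chromosome 9 from 107296659 to 107302784, plus strand) encodes a feedback inhibitor that binds activated cytokine receptors and is among the most direct transcriptional readouts of STAT5. It was at 141, 134, 134 and 138 CPM in control libraries 1 to 4. It was at 154, 137, 141 and 156 CPM in RGX-104 libraries 1 to 4, with libraries 1 and 4 above every control library and libraries 2 and 3 close to the control values. The log2 difference was 0.10 ± 0.04 (SE; 95% interval 0.03 to 0.18), with an edgeR adjusted p of 0.0952. Without RGX-104 library 2 it was 0.14 (edgeR adjusted p = 0.0186). Leaving out RGX-104 libraries 1 and 4 together, which was decided on after the values were seen, gave 0.02 (edgeR adjusted p = 0.808), and leaving out 2 and 3 together gave 0.18 (edgeR adjusted p = 0.00346). Cish overlaps 2 gene models on the opposite strand, Gm17040 and Gm17041, with 261 and 479 shared exon bases.

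Socs2 (chromosome 10 from 95383903 to 95417321, minus strand) encodes a relative of Cish that restrains cytokine and growth hormone signalling. It was at 11.1, 9.61, 9.44 and 13.1 CPM in control libraries 1 to 4 and at 13.7, 11.5, 11.1 and 15.8 CPM in RGX-104 libraries 1 to 4. The groups overlapped, with control library 4 above RGX-104 libraries 2 and 3. The difference of 0.26 ± 0.15 (log2, SE; 95% interval -0.08 to 0.60) did not pass (edgeR adjusted p = 0.350). It moved with single libraries, from 0.16 without RGX-104 library 4 to 0.37 without control library 4, and was not called in either case. Its spread was the widest among the members, with coefficients of variation of 15.8% in control and 16.7% in RGX-104 libraries, against 1.04% and 4.11% for Il2rb.

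Cish, Socs2 and Il7r set libraries 1 and 4 of each group apart from libraries 2 and 3. In both groups libraries 1 and 4 held the highest levels of Cish and of Socs2 and the lowest levels of Il7r. Il2ra was highest in library 4 of each group, followed by library 1 in the RGX-104 group and by library 2 in the control group. Relative to the group mean, Socs2 in library 4 stood at 0.29 in both groups (log2), and Il7r in library 4 at -0.09 in control and -0.04 in RGX-104. Ifng stood at 0.24 and 0.23 in RGX-104 libraries 1 and 4 and at 0.20 in control library 4, but control library 1 was the lowest of its group at -0.16. Il2rb did not follow this order, since in RGX-104 library 1 it stood at -0.09 and in library 4 at 0.00. This pattern was noticed in the values and was not tested, and the labels do not say that equal library numbers in the 2 groups share a culture or batch.

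**Figure D3:**
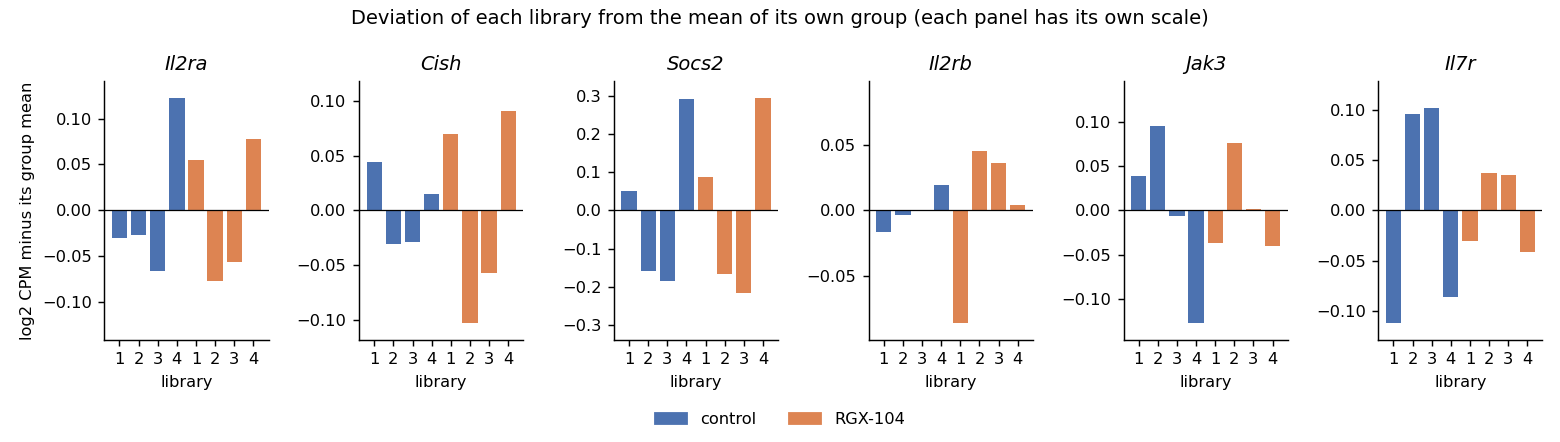
Deviation of log2 CPM in each library from the mean of its own group (vertical axes, each panel with its own scale) for 6 members in control libraries 1 to 4 and RGX-104 libraries 1 to 4. Cish and Socs2 are above their group mean in libraries 1 and 4 of both groups, where Il7r is below it, and Il2rb does not share this order.

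Levels of different genes were compared per kilobase of the longest annotated transcript (GENCODE M21). In control libraries Il2rb was the most abundant member by this measure at 273 ± 2.84 CPM per kilobase (SD, n = 4), followed by Il2rg at 192 ± 5.75 and Il2ra at 179 ± 10.6. The ranges of Il2rg and Il2ra overlapped, so their order is not resolved. Il21r (103 ± 1.36) and Jak3 (91.0 ± 5.86) came next, with ranges apart. Stat5b (46.5 ± 0.964) and Stat5a (46.1 ± 0.789) overlapped, and below them came Cish (29.1 ± 0.737), Il7r (22.5 ± 1.79) and Socs2 (2.55 ± 0.403), each with a range apart from its neighbours. Il7r transcript was thus the scarcest of the 5 receptor chains described here, while Il2rb stood further above the others with RGX-104 (332 ± 13.6 CPM per kilobase). Per kilobase of all annotated exons together, Stat5a was at 25.6 ± 0.438 and Stat5b at 43.7 ± 0.908 in control libraries, and Il2ra at 138 ± 8.19 was level with Il2rg at 134 ± 4.03. The order of the STAT5 paralogs therefore depends on the length used.

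**Figure D4:**
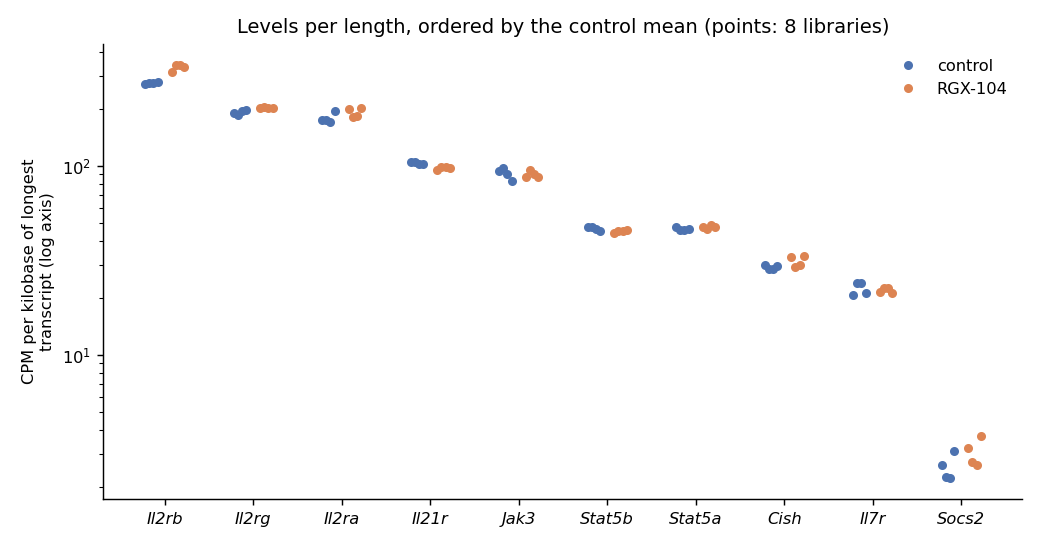
Level in CPM per kilobase of the longest annotated transcript (vertical log axis) of each member in the 4 control and 4 RGX-104 libraries, ordered by the control mean. Il2rb is highest at 273 CPM per kilobase in control libraries and Socs2 lowest at 2.55, and the ranges of Il2rg and Il2ra and of Stat5b and Stat5a overlap there.

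The genes whose pattern over the 8 libraries was most like that of Il2rb were Ptp4a3, Wdtc1 and Elovl5. Likeness was the root mean square difference between log2 CPM patterns, each centred on its own mean, among 9857 genes with a mean log2 CPM no lower than 1. The difference was 0.0286 for Ptp4a3, a phosphatase gene, which went from 99.6 ± 1.41 to 119 ± 3.21 CPM (SD, n = 4). It was 0.0333 for Wdtc1 (55.2 ± 1.20 to 65.1 ± 2.77 CPM) and 0.0365 for Elovl5, a fatty acid elongase gene (168 ± 4.91 to 199 ± 4.83 CPM). The measure covers 8 libraries of 1 contrast and is a description with no test.

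Other genes of the pathway were taken from 7 lists, which were also chosen with earlier results of these data known. Of their 96 genes 85 were tested, and 8 were higher and 19 lower by edgeR at adjusted p under 0.05, against 4.82% higher and 4.13% lower over all tested genes. Their median log2 change was -0.02. All 7 genes of the cytokine list were below the filter for testing. Il2 had 1 to 17 counts per library and Il21 1 to 10, and since both have rows for alternate-scaffold copies these counts are not read as low expression. Il15 had at most 8 counts, Il9 at most 3, Il7 and Tslp at most 1, and Il4 had 0 in every library.

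Among the other receptor subunits, 1 of 4 tested genes was higher and 2 were lower, against 4.82% and 4.13% of all tested genes. Their median log2 change was -0.15. Il9r, the interleukin 9 receptor chain, rose from a low level of 2.38 ± 0.186 to 3.46 ± 0.409 CPM (SD, n = 4), by 0.54 ± 0.12 (log2, SE; edgeR adjusted p = 0.00331). Il15ra, which presents interleukin 15 to the chain encoded by Il2rb, fell from 59.9 ± 2.62 to 52.7 ± 1.98 CPM (-0.19 ± 0.04; edgeR adjusted p = 0.00172). Il4ra, the interleukin 4 receptor alpha chain, fell from 150.3 ± 3.77 to 135 ± 2.23 CPM (-0.15 ± 0.03; edgeR adjusted p = 8.58e-04). The groups did not overlap for any of these 3 genes. Crlf2, a receptor chain for thymic stromal lymphopoietin, was at 19.2 ± 0.688 and 17.3 ± 1.35 CPM and did not pass (edgeR adjusted p = 0.0891). Receptor chains of the family thus differed in direction, with Il2rb and Il9r higher and Il15ra and Il4ra lower.

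Of the 7 other JAK and STAT genes 0 were higher and 3 lower, against 4.82% and 4.13% of all tested genes. Their median log2 change was -0.06. Jak2 fell from 137 ± 3.80 to 115 ± 3.34 CPM (-0.25 ± 0.03; edgeR adjusted p = 1.81e-06). Stat4, which acts below the interleukin 12 receptor, fell from 246 ± 8.31 to 218 ± 6.64 CPM (-0.18 ± 0.03; edgeR adjusted p = 2.37e-04). Stat3, the most abundant of the list that was not called, was at 775 ± 12.4 and 744 ± 30.7 CPM (edgeR adjusted p = 0.218). Jak1, the partner of Jak3 at these receptors and named here after its value was seen, had a log2 difference of 0.01 ± 0.03 (edgeR adjusted p = 0.858). The fall in Jak2 and Stat4 thus had no counterpart of that size in Jak1, Jak3, Stat5a or Stat5b, although the difference between these genes was not tested.

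Of 15 SOCS, phosphatase and other regulators of cytokine signals, 4 were lower and 0 higher (median log2 change -0.07). Over all tested genes 4.13% were lower and 4.82% higher. Dusp5, a phosphatase gene induced by interleukin 2, fell from 104 ± 5.14 to 91.2 ± 1.11 CPM (-0.19 ± 0.03; edgeR adjusted p = 2.41e-04). Socs5 (-0.17 ± 0.05), Ptpn1 (-0.11 ± 0.03) and Ptpn11 (-0.11 ± 0.03) were also lower (edgeR adjusted p = 0.0213, 0.0170 and 0.0214), but each lost its call without some single libraries. Without control library 2 or RGX-104 library 3 the adjusted p of Socs5 was 0.0783 or 0.0984. For Ptpn1 it was 0.0714 without RGX-104 library 2 and 0.0580 without library 3. For Ptpn11 it was 0.0570 to 0.0751 without control library 1 or 2 or RGX-104 library 1, 2 or 4. Ptpn6, encoding the phosphatase SHP-1, was at 475 ± 8.42 and 479 ± 16.7 CPM (edgeR adjusted p = 0.858).

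Other genes reported as STAT5 targets in lymphocytes moved both ways, with 6 higher and 4 lower of 25 tested and a median log2 change of 0.03. The shares over all tested genes were 4.82% higher and 4.13% lower. Many of the listed targets also answer to other signals. Ifng (1.17 ± 0.16), Il18r1 (0.90 ± 0.10) and the cytokine gene Osm (0.26 ± 0.06) were higher, and Prdm1 (-0.37 ± 0.06), which encodes the effector regulator BLIMP-1, was lower. The other 6 called genes, named after their values were seen, were Gzmb (0.20), Tnfrsf9 (0.18) and the survival gene Bcl2l1 (0.17), which were higher, and Il12rb2 (-0.25), Myc (-0.24) and the cyclin gene Ccnd2 (-0.23), which were lower. Tnfrsf9 has a row for a scaffold copy. Bcl2, Pim1 and Pim2, also chosen here after their values were seen, had log2 differences of 0.03, 0.01 and 0.04 (edgeR adjusted p = 0.567, 0.900 and 0.365).

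The adaptor, PI3K, Akt and Ras genes that carry the second arm of these receptors numbered 22 tested. Of these, 3 were lower and 0 higher (median log2 change -0.01), against 4.13% and 4.82% of all tested genes. Akt2 (-0.12 ± 0.03; edgeR adjusted p = 0.00648) and the adaptor gene Shc1 (-0.11 ± 0.03; edgeR adjusted p = 0.0476) were among the called members. Shc1 lay at the threshold and lost its call when any single library was left out.

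Of 12 tested regulators of Il7r and genes of the same FOXO-driven resting programme, 1 was higher and 3 were lower (median log2 change -0.03). The shares over all tested genes were 4.82% higher and 4.13% lower. Gfi1, a repressor of Il7r in CD8 T cells, fell from 148 ± 3.86 to 112 ± 4.12 CPM (-0.40 ± 0.03; edgeR adjusted p = 5.67e-10). Foxo1, which activates Il7r and was also named after its value was seen, had a log2 difference of -0.02 ± 0.03 (edgeR adjusted p = 0.760). Klf2, a factor of resting T cells, fell from 5.72 ± 0.520 to 3.88 ± 0.228 CPM (-0.56 ± 0.10; edgeR adjusted p = 2.29e-04). Ccr7, a chemokine receptor gene of lymph node homing, fell by 0.10 on the log2 scale (edgeR adjusted p = 0.0125). Ccr7 was not called without control library 3 (edgeR adjusted p = 0.0517) or RGX-104 library 1 (edgeR adjusted p = 0.0537). Il7r itself did not pass the test while Gfi1 fell, and whether these differences differ from each other was not tested.

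**Figure D5:**
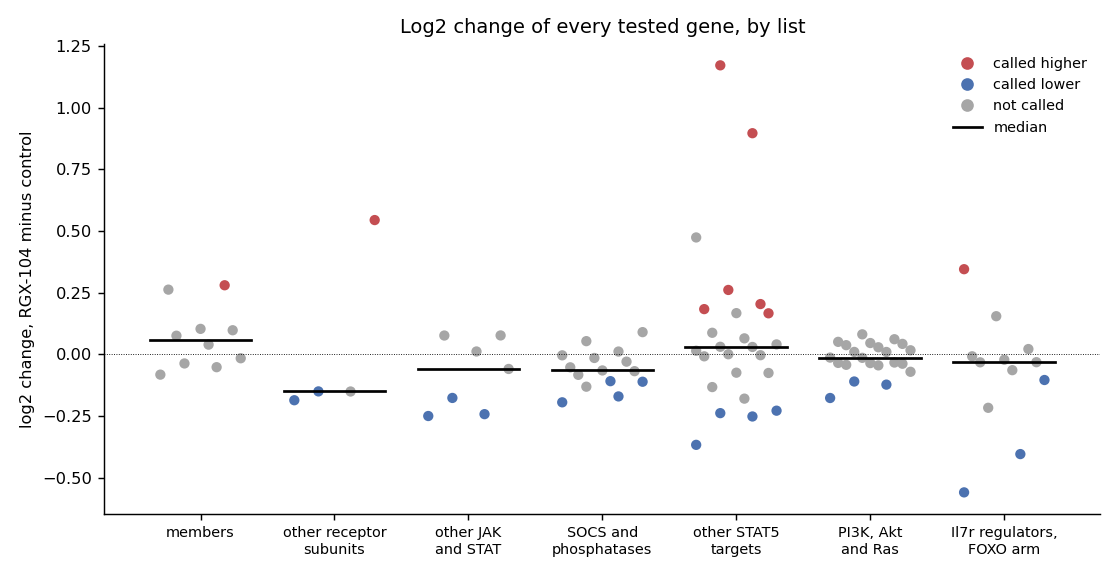
Log2 change (RGX-104 minus control, vertical axis) of every tested gene of the members and of 6 lists of related genes, with the median as a line and called genes in colour. The members have a median of 0.06 with 1 called gene, and the other receptor subunits a median of -0.15 with Il9r at 0.54 above the rest.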

How the data were processed

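Read counts per gene, as whole numbers without normalization, are what the authors deposited, in a single table. The submitters' processing notes name build GRCm38, the trimmer cutadapt 2.10, the aligner STAR 2.7.5, DESeq2 1.4 and R 4.1.0. They record neither how reads were counted nor whether strand was used. Genes were kept by filterByExpr of edgeR (minimum count 10, minimum total 15), leaving 13290 of 41730. Treatment was tested with the robust quasi-likelihood method of edgeR 4.0.16 (limma 3.58.1, R 4.3.3) on TMM-scaled libraries, with no other term. P-values were adjusted by Benjamini-Hochberg over all tested genes and called under 0.05. SE and 95% intervals came from the F statistic. The script was tested on simulated data. Coordinates came from RefSeq (GRCm38.p6), overlaps and lengths from GENCODE M21, by symbol. Alternatives were DESeq2 1.42.0, weighted limma-voom, different scalings and filters, 1 surrogate variable (sva 3.50.0), adjusted p under 0.01 and leaving out libraries.

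The members and the gene lists were chosen with earlier results of these data known. All 10 members are named. Of each list up to 4 called genes with the largest changes are named, and for lists of signalling parts the most abundant gene not called. Some genes that this rule names are not reported here.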

Additional observations from a re-analysis of the deposited data

Results flagged for a closer look

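In 76 groups of 4 libraries, covering the members, the named genes of the lists and the genes most like Il2rb, 2 had a library set well apart from its 3 companions. About 3.8 would be found by chance. Socs5 was at 24.7 CPM in control library 2 against 22.8 to 22.9 CPM in the other control libraries. Ptpn11 was at 185 CPM in RGX-104 library 3 against 176 to 177 CPM in the other RGX-104 libraries. No member of the family held such a value.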

How the results depend on the processing

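Il2rb kept its direction and its call under all alternatives run. The count of members called higher (1 in the main test) was 2 with upper-quartile scaling, library totals only and 1 surrogate variable, and 4 with no filter. These settings called 8.95%, 8.56%, 7.10% and 6.15% of all genes, in that order. Over all genes, upper-quartile scaling called 752 higher and 438 lower and library totals 686 and 451, against 640 and 549 in the main test. The count of members called lower (0) was 1 with DESeq2, limma-voom, no filter and 1 surrogate variable. DESeq2 called 4.45% of all genes lower and limma-voom 4.76%. Leaving out 1 library gave 1 to 3 higher and 0 to 1 lower, with 3 higher and 1 lower without control library 4. That fit called 7.31% of all genes. Without RGX-104 library 2 there were 2 higher, against 6.41% of all genes. Over the single removals, calls ranged from 840 of 13379 genes (without control library 3) to 1340 of 13376 (without control library 1). With no filter the log2 change was 0.0910 for Il2ra, 0.0966 for Cish, 0.255 for Socs2 and -0.0887 for Il21r, each newly called. Il2rg was at 0.0874 with upper-quartile scaling, 0.0866 with library totals only and 0.0918 with 1 surrogate variable. Il21r was at -0.0845 with DESeq2, -0.0778 with limma-voom and -0.0895 with 1 surrogate variable. Without single libraries the ranges were 0.0725 to 0.141 for Il2ra, 0.0575 to 0.0900 for Il2rg, -0.0911 to -0.0701 for Il21r, 0.0735 to 0.137 for Cish, 0.157 to 0.371 for Socs2, -0.0734 to -0.00238 for Il7r and -0.0560 to 0.0169 for Jak3, which turned. Ptpn6 ranged from -0.00711 to 0.0277. The cause of these shifts was not tested.

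Chosen after the data were seen, leaving out RGX-104 libraries 2 and 3 gave 3 higher (Il2ra 0.162, Cish 0.181), against 5.12% of all genes called. It also turned Ptpn6 to -0.0325, and leaving out 1 and 4 turned Jak3 to 0.0236. Also added was a fit with the column number as a replicate block. Same-numbered libraries correlated by 0.141, 0.0746, 0.0430 and 0.157 in their deviations across genes. Every RGX-104 library correlated most with the control library of its own number. Control library 3 was slightly closer to RGX-104 library 4 (0.0447) than to RGX-104 library 3 (0.0430). The labels name no pairs, so the main test used none, and whether the numbers mark pairs was not tested. If they do, the main test leaves that pairing out. With that block 5 members were higher and 1 lower, against 15.2% of all genes called. Il2ra (0.0981), Il2rg (0.0760), Cish (0.102) and Socs2 (0.267) joined Il2rb, and Il21r (-0.0823) was lower. Socs2 had the lowest counts of the members, at 326 to 503 in a library.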

Other observations

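Il2, the gene of interleukin 2 itself, lay below the filter and carries no test. It had 10, 4, 9 and 16 counts in control libraries 1 to 4 and 13, 10, 1 and 17 counts in RGX-104 libraries 1 to 4. The highest count in each group was in library 4, where Il2ra and Socs2 were also highest. Il2 also has 2 rows for copies on alternate scaffolds, so these counts are not read as its level, and the difference between the groups was not tested.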
